A study of Mus musculus with 12 samples.

Results

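Primordial germ cell-like cells (PGCLCs) that lack the DNA methyltransferases and came from a 48 h priming culture were compared with wild-type PGCLCs from a 40 h priming culture. The comparison rests on 6 of the 12 libraries in the series, chosen by their titles: the 3 labelled TKO, 48 h, and the 3 labelled WT, 40 h. Genotype and priming time both differ between these groups and cannot be told apart here. WT was sequenced at 40 h alone, so the 3 TKO libraries primed for 40 h are given beside the results as values of the group that shares genotype with one side and time with the other.

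All cells were E14TG2a, a male mouse embryonic stem cell line, kept in serum-free medium with LIF, both inhibitors of 2i and vitamin C. They were primed to epiblast-like cells (EpiLCs) and then grown as aggregates for 4 days in BMP4, BMP8, SCF, EGF and LIF, so both groups share this treatment. TKO is known from the study as the knockout of Dnmt1, Dnmt3a and Dnmt3b; the labels name no clones, so the 3 TKO replicates may be cultures of 1 clone, and the p-values measure the spread between cultures labelled biological replicates. Whether the RNA was from germ cells sorted out of the aggregates or from all their cells is not given in the labels. RNA abundance was measured as estimated read counts per transcript, summed per gene, and is given as CPM, the count per 1000000 counts of a library, with TMM scaling between libraries.

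Dnmt3a and Dnmt3b, with the cofactor Dnmt3l, place methyl groups on CpG sites of unmethylated DNA, and Dnmt1 copies them after replication. Germ cell precursors of the mouse arise from the epiblast under BMP signals, regain naive pluripotency genes such as Dppa3 and lose most DNA methylation, including that of imprinted genes and of germline promoters. Priming sets how far the cells have moved along the epiblast path when germ cell induction begins.

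The targeted genes were low in every TKO library. Dnmt1 was at 441, 426 and 450 CPM in WT 40 h replicates 1 to 3 and at 64.9, 121 and 74.4 CPM in TKO 48 h. Dnmt3a was at 358, 436 and 422 CPM in WT 40 h and at 25.4, 48.7 and 31.0 CPM in TKO 48 h. Dnmt3b was at 157, 215 and 183 CPM in WT 40 h and at 13.4, 21.8 and 19.7 CPM in TKO 48 h. The groups did not overlap for any of the 3, so each TKO library was below each WT library. The log2 fold changes, TKO 48 h minus WT 40 h with standard errors (SE), were -2.33 ± 0.16 for Dnmt1, -3.52 ± 0.18 for Dnmt3a and -3.33 ± 0.18 for Dnmt3b (edgeR quasi-likelihood test, Benjamini-Hochberg adjusted p = 5.5e-08, 4.51e-10 and 8.91e-10). When effective length was entered as an offset, the difference was -2.71 for Dnmt3a and -2.625 for Dnmt3b. All 3 were lower already in TKO 40 h against WT 40 h (-1.87, -2.66 and -1.95). From TKO 40 h to TKO 48 h Dnmt3a and Dnmt3b were lower by a further -0.87 and -1.38 (adjusted p = 0.006 and 0.000184), and for Dnmt1 the difference of -0.47 did not pass (adjusted p = 0.1).

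Markers of the germ line and of pluripotency were present in both groups. Tfap2c, a transcription factor of germ cell specification, was at 40.1 to 55.7 CPM in WT 40 h and 65.2 to 74.3 CPM in TKO 48 h (adjusted p = 0.057). Prdm1, which represses somatic genes in germ cell precursors, was at 22.3 to 34.0 and 27.7 to 38.4 CPM, and Pou5f1, a core pluripotency factor, at 486 to 504 and 496 to 682 CPM; neither passed the test. Nanos3, another germ cell gene, was near its detection limit, at 1.11 to 2.67 and 1.37 to 4.68 CPM.

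In all, 916 of 16178 genes tested (5.66%) were called at an adjusted p below 0.05. Of these 460 were higher (2.84%) and 456 lower (2.82%) in TKO 48 h, and 247 (1.53%) differed at least 2-fold. Replicates of the groups did not overlap for 3890 genes (24.0%). Rankings here cover called protein-coding and lincRNA genes with at least 5 CPM in a group, no overlap and a name beyond a clone or Gm number. The largest increases were those of Sox18, Tbx1, Sfrp5, Zfp541, Sema6b, Anxa1, Hand1, Myom2, Ankrd45, Lgals9, Cebpa and Rhox6. The largest decreases were those of Gla, Dnmt3a, Dnmt3b, Fosb, Hdx, Maml3, Slc10a1, Dnmt1, Zfy1, Bcl11a, Fos and Ttn. Of the 916 calls, 140 (80 higher, 60 lower) were made in every one of 15 other ways of processing that tested the gene, and 241 when any single library of the 6 was left out. Those 140 are said below to be called throughout. Among the 24 named here, the call of Sfrp5 was lost with the correction for base composition described below (2.46, adjusted p = 0.076) and without any single library but TKO 48 h replicate 2, and that of Zfp541 without any but TKO 48 h replicate 1. Those of Myom2, Rhox6 and Hdx were lost without TKO 48 h replicate 3, WT 40 h replicate 2 or WT 40 h replicate 3, that of Slc10a1 without WT 40 h replicate 1, and that of Zfy1 without TKO 48 h replicate 1 or 3 or WT 40 h replicate 1 or 2 (adjusted p = 0.0531 to 0.154 over these fits). Of the other ways of processing, an offset for effective transcript length cost the most calls, 80 of the 130 among all called genes that the naming rule picks. Among these 80 were Anxa1, Cbx5, Phf19, Tfcp2l1, Meioc, Hk1, Ak4, Plod2, Col4a1, Flna, Pcsk6 and H2-K1 (adjusted p = 0.0539 to 0.235 with the offset). Their calls held without any single library. The 80 also held Ifitm3, D1Pas1, Zfp42, Lef1, Ero1l, Gldc, Amt, Lama1 and Ccnd2 (adjusted p = 0.0766 to 0.526 with the offset). Losses given for single genes below mostly leave the offset out.

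**Figure D1:**
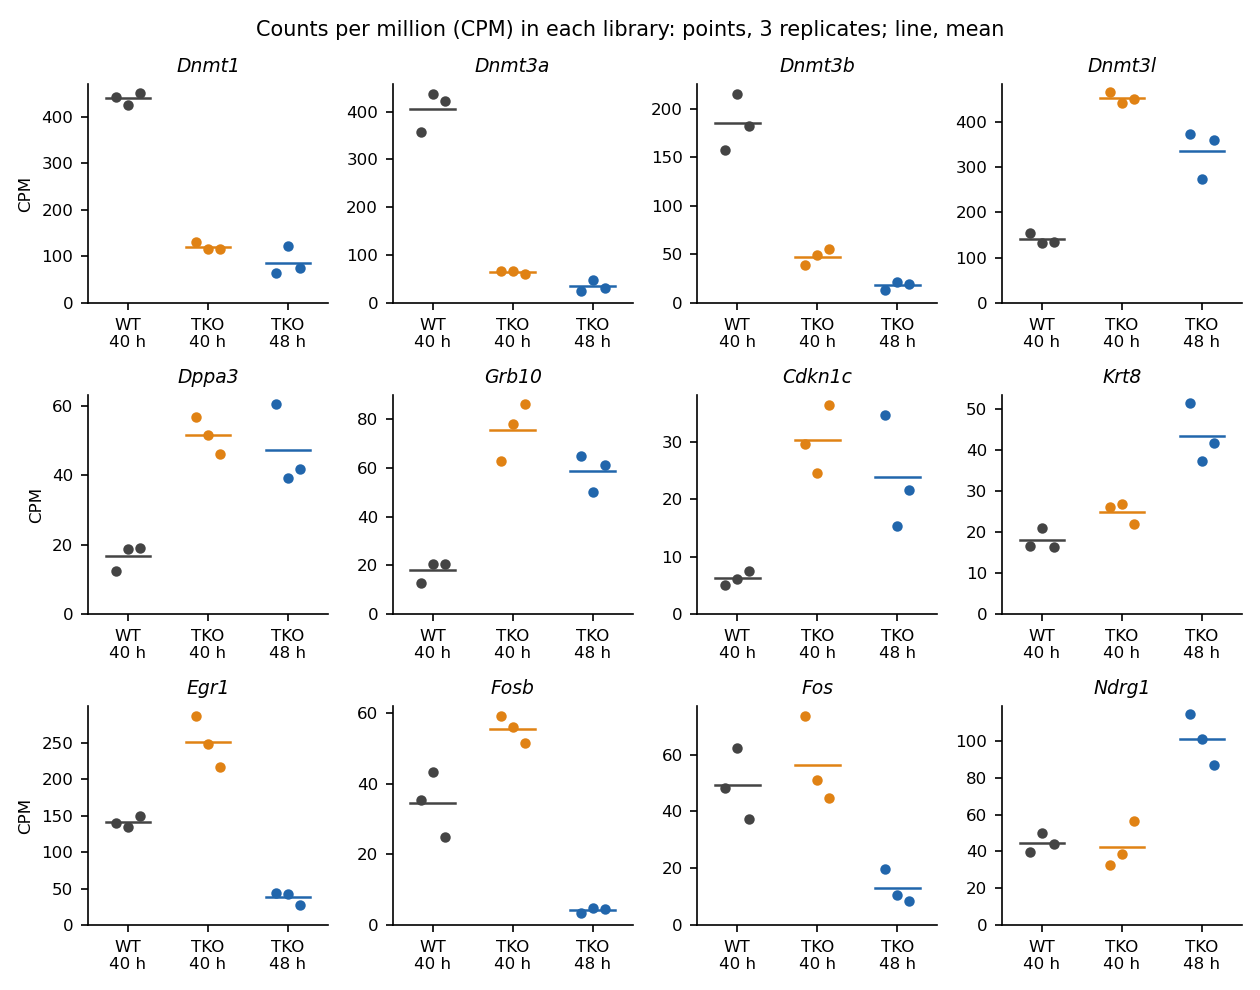
CPM (vertical axes, from 0) of 12 genes in the libraries of WT 40 h, TKO 40 h and TKO 48 h; points are the 3 replicates and lines their means. Dnmt1, Dnmt3a and Dnmt3b are low in both TKO groups, and Dppa3, Grb10 and Cdkn1c are high in both. Of the groups drawn, Egr1, Fosb and Fos are low in TKO 48 h alone.

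The calls followed the base composition of the transcripts. Genes were split into eighths by transcript GC content. In the lowest eighth (30.8 to 41.1% GC) 7 genes were called higher and 137 lower, with a median log2 fold change of -0.25. In the highest eighth (57.1 to 74.7% GC) 141 were called higher and 11 lower, with a median of 0.23. In TKO 40 h against WT 40 h the medians of the eighths stayed between -0.01 and 0.01. Within single libraries, the median deviation of the highest eighth minus that of the lowest was -0.17, -0.10 and -0.12 in WT 40 h, and 0.51, 0.13 and 0.29 in TKO 48 h replicates 1 to 3. TKO 48 h thus stood apart from WT 40 h in all 3 libraries, replicate 1 most and replicate 2 least. The same value was -0.17, -0.11 and -0.20 in TKO 40 h. In the TKO libraries primed for 96 h it was -0.07, -0.07 and 0.08, the last close to TKO 48 h replicate 2.

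With a correction of each library for GC content and transcript length, chosen after seeing the data, 710 genes were called (4.39%), 382 higher and 328 lower. Called with and without it were 528 genes (3.26%), 292 higher and 236 lower, all in the same direction. Corrected counts of the lists and corrected values of calls that were lost are given below. Ribosomal RNA took 1.78 to 2.15% of the counts matched to genes in TKO 48 h and 0.93 to 1.29% in WT 40 h, the 10 most abundant genes 11.02 to 14.59% and 9.9 to 10.75%, and mitochondrially encoded mRNA 1.08 to 1.19% and 1.39 to 1.5%. None of these ranges overlapped (two-sided exact permutation p = 0.1 each, the smallest that 3 against 3 allows). Totals ran from 6570180 to 7362584 estimated counts in TKO 48 h and from 7389986 to 9114128 in WT 40 h. The part of library composition in the calls was not tested beyond this correction.

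**Figure D2:**
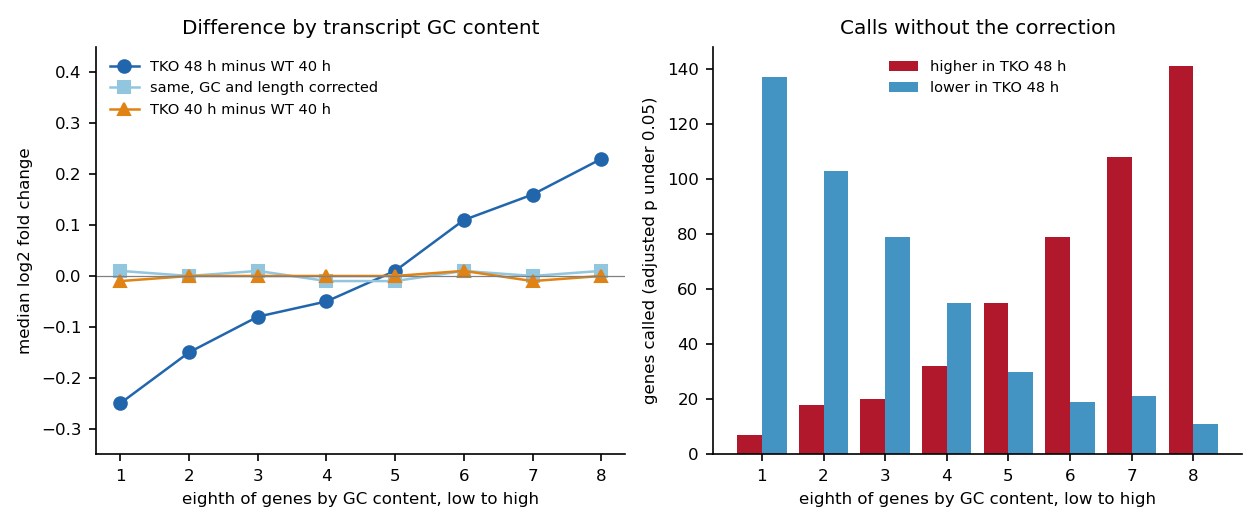
Left, median log2 fold change of the genes in each eighth of transcript GC content for TKO 48 h minus WT 40 h, the same with the correction, and TKO 40 h minus WT 40 h; right, genes called higher or lower in TKO 48 h in each eighth. The uncorrected medians go from -0.25 to 0.23, while the other 2 lines stay near 0.

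Among 21 genes of the DNA methylation machinery, 1 was called higher and 5 lower, against 2.84% and 2.82% of all genes. The median of the 21 was -0.24 against -0.01 over all genes. Dnmt3l, the catalytically inactive cofactor, was at 154, 132 and 135 CPM in WT 40 h and at 372, 274 and 359 CPM in TKO 48 h. It was higher by 1.26 ± 0.12 (edgeR, adjusted p = 3.11e-06) in TKO 48 h and by 1.69 in TKO 40 h against WT 40 h. Hells, a remodeller that opens chromatin for methylation, and Tet1, which oxidises methylcytosine, were called lower (-0.42 ± 0.09 and -0.49 ± 0.11). Both calls were lost with the GC correction (-0.11 and -0.20, adjusted p = 0.58 and 0.15). Hells also lost its call without WT 40 h replicate 1 (adjusted p = 0.0593), and Tet1 without any single library but TKO 48 h replicate 2 (0.0508 to 0.083). The targeted genes and Dnmt3l were called throughout.

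Genes of silencing complexes were called in both directions. L3mbtl2, a subunit of the Polycomb complex PRC1.6 that represses germline genes, was at 136, 125 and 110 CPM in WT 40 h and 288, 196 and 236 CPM in TKO 48 h. All 3 TKO libraries were above WT, and L3mbtl2 was called throughout (0.96 ± 0.13, adjusted p = 0.00032); it alone of 12 PRC1.6 genes was called. Of 23 genes of PRC2 and H3K9 methylation silencing 1 was higher and 6 lower, against 2.84% and 2.82% of all genes, with a median of -0.19. With the correction 1 was higher and 3 lower. Phf19, a PRC2 accessory protein, was at 3.67, 4.00 and 3.32 CPM in WT 40 h and 12.9, 12.7 and 9.94 CPM in TKO 48 h (1.69 ± 0.33, adjusted p = 0.0056). Cbx5, which encodes the heterochromatin protein HP1-alpha, was at 359, 355 and 350 CPM and at 200, 232 and 229 CPM (-0.69 ± 0.09, adjusted p = 0.00035). Cbx5 stood as low in TKO 40 h, at 213, 218 and 208 CPM.

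Of 18 tested germ cell specification genes 5 were called higher and none lower, with a median of 0.46; over all genes 2.84% were called higher. With the correction 3 were higher. Dppa3, which shields the maternal genome from demethylation after fertilisation and marks germ cell precursors, was at 12.4, 18.8 and 19.069 CPM in WT 40 h and at 60.6, 39.2 and 41.8 CPM in TKO 48 h. It was higher by 1.5 ± 0.20 (adjusted p = 0.00035), and by 1.63 in TKO 40 h against WT 40 h, with no called difference between the TKO groups (-0.13, adjusted p = 0.8). Elf3, an epithelial ETS factor, was at 37.5, 34.3 and 44.4 against 70.3, 61.0 and 63.1 CPM (0.74 ± 0.13, adjusted p = 0.003). Dppa3 and Elf3 were called throughout. Ifitm3, a membrane protein of early germ cells, was at 24.6, 14.6 and 17.3 CPM in WT 40 h and 51.2, 32 and 28 CPM in TKO 48 h (0.97 ± 0.23, adjusted p = 0.016), and at 15.4 to 18 CPM in TKO 40 h. Its call was lost without TKO 48 h replicate 1, WT 40 h replicate 2 or WT 40 h replicate 3 (adjusted p = 0.0752 to 0.11). The calls of Alpl, the alkaline phosphatase of germ cells and stem cells, and of Itgb3, the integrin used to sort PGCLCs, were lost with the correction (0.28 and 0.93, adjusted p = 0.11 and 0.067). Alpl was also lost without TKO 48 h replicate 1 or any WT 40 h replicate (0.0514 to 0.097), and Itgb3, whose groups overlapped, without TKO 48 h replicate 2 or 3 or WT 40 h replicate 1 or 3 (0.091 to 0.169). In bulk RNA, fewer cells of a type and less RNA per cell cannot be told apart.

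Germline genes whose promoters are known to be silenced by methylation were not called higher as a group in TKO 48 h. Of 44 tested, 1 was higher and 5 lower, against 2.84% and 2.82% of all genes, with a median of -0.06. With the correction 1 was higher and 4 lower. Tuba3b, a testis tubulin, was at 30.3, 28.3 and 44.1 CPM in WT 40 h and at 13.9, 13.6 and 13.1 CPM in TKO 48 h (-1.34 ± 0.20, adjusted p = 0.00073). Sohlh2, a transcription factor of spermatogonia and oocytes, was at 78.9, 89.3 and 72.5 CPM and at 46.9, 44.0 and 38.1 CPM (-0.90 ± 0.16, adjusted p = 0.0023). Both were called throughout and no replicates overlapped. Meioc, which is needed for meiotic prophase, was at 42.4, 51.7 and 45.0 against 19.8, 22.7 and 26.8 CPM (-1.0 ± 0.19, adjusted p = 0.005), and D1Pas1, a testis DEAD-box helicase, was lower by -0.75 ± 0.19 (adjusted p = 0.023). Meioc and Sohlh2 were lower in TKO 40 h too (-0.76 and -0.58), while Tuba3b was at 27.1 to 35.9 CPM there. Dazl, an RNA-binding protein of germ cells, was at 58.6 to 67.0 CPM in WT 40 h, 82.9 to 114 CPM in TKO 40 h and 46.7 to 60.9 CPM in TKO 48 h, with no call against WT at 48 h (-0.25, adjusted p = 0.35). The call of D1Pas1 was lost without TKO 48 h replicate 1 or 3 or WT 40 h replicate 2 or 3 (adjusted p = 0.0544 to 0.112).

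The promoters of Sohlh2, D1Pas1 and Zfp42 are shown because CpG sites in them are what the missing enzymes would methylate. Each line gives the 250 bases before the gene's RefSeq start, which lies within 30 bases of the GENCODE start for the genes shown, 5′ to 3′ on the strand of the gene, on build GRCm38.p6, with CpG sites in capitals. Methylation itself was not measured here.
Sohlh2: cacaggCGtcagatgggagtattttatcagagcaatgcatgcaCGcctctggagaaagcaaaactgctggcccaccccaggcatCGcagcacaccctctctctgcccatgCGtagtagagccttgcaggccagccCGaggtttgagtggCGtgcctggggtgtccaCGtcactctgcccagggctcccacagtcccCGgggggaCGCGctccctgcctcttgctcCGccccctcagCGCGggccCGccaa
D1Pas1: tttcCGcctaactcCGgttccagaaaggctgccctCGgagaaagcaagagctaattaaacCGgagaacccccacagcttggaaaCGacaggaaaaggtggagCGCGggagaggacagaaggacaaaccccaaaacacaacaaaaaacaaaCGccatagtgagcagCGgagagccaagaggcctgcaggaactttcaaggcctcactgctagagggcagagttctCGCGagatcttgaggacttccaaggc
Zfp42: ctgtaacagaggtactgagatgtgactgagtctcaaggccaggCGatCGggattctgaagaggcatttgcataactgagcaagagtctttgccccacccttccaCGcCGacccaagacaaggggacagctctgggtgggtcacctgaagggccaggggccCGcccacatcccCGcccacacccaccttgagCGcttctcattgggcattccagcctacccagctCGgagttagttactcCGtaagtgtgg
The windows lie at chr3:55181794-55182043 (+ strand), chr1:186967166-186967415 (+ strand) and chr8:43307010-43307259 (- strand). They hold 14 CpG sites for Sohlh2, 11 for D1Pas1 and 9 for Zfp42. Zfp42, also known as Rex1 and a marker of naive cells, was the member called higher, at 415, 343 and 336 CPM in WT 40 h and 500, 462 and 437 CPM in TKO 48 h (0.35 ± 0.10, adjusted p = 0.045). Its call was lost without TKO 48 h replicate 1 or 3 or WT 40 h replicate 2 or 3 (adjusted p = 0.071 to 0.188), and TKO 40 h was higher still, at 503 to 529 CPM.

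Pluripotency genes were called in both directions. Of 22 naive and core pluripotency genes 3 were higher and 2 lower, against 2.84% and 2.82% of all genes, with a median of 0.13. With the correction 5 were higher, with Nanog and Dppa2 added (0.38 and 0.48), and 2 lower. Tfcp2l1, a naive factor downstream of LIF, was at 68.4, 72.8 and 80.4 CPM in WT 40 h and 138, 117 and 115 CPM in TKO 48 h (0.74 ± 0.12, adjusted p = 0.00089). Klf4, another naive factor, was at 61.2, 51.5 and 62.7 against 34.5, 32.8 and 26.0 CPM (-0.91 ± 0.16, adjusted p = 0.0018). Tfcp2l1 was thus higher and Klf4 lower without overlap, each in all 3 libraries, and both calls held with the correction (0.89 and -1.05).

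Of 20 genes of the formative and primed epiblast 1 was called higher and 5 lower, against 2.84% and 2.82% of all genes. Of the 5 lower genes 2 were the targeted Dnmt3a and Dnmt3b. With the correction none was higher, Krt18 being lost (adjusted p = 0.0502), and 6 were lower, with Zic2 added (-0.55). Sall2, a zinc finger factor, was at 57.4, 59.8 and 67.7 CPM in WT 40 h and 34.9, 17.8 and 33.7 CPM in TKO 48 h (-1.10 ± 0.19, adjusted p = 0.0023), and at 53.2 to 54.8 CPM in TKO 40 h. Sox4, an SRY-box factor, was lower by -0.81 ± 0.15 (adjusted p = 0.0031), and both were called throughout. Lef1, a nuclear effector of WNT signalling, was at 130, 138 and 118 against 92.3, 75.7 and 76.3 CPM (-0.67 ± 0.16, adjusted p = 0.017); its call was lost without TKO 48 h replicate 3, WT 40 h replicate 1 or WT 40 h replicate 2 (0.0669 to 0.0864). Fgf5 and Otx2, the usual markers of primed cells, were not called (-0.11 and -0.19).

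The immediate early genes, which growth factors and stress switch on within minutes through ERK and CREB, held 2 of the 12 ranked decreases, Fosb and Fos. Of 25 tested, 3 were called higher and 6 lower, against 2.84% and 2.82% of all genes, with a median of -0.33. With the correction 1 was higher and 6 lower. Egr1, a zinc finger factor downstream of ERK, was at 140, 134 and 149 CPM in WT 40 h, at 287, 249 and 217 CPM in TKO 40 h and at 44.0, 43.1 and 28.1 CPM in TKO 48 h. Fosb, an AP-1 subunit, was at 35.3, 43.3 and 25.0, then 59.0, 56.1 and 51.4, then 3.26, 4.95 and 4.40 CPM in the same order. Fos, its paralogue, was at 48.2, 62.5 and 37.4, then 73.7, 51.0 and 44.6, then 19.8, 10.4 and 8.52 CPM. TKO 48 h was thus below both 40 h groups in every library for all 3 genes. TKO 40 h was above WT 40 h in every library for Egr1 and Fosb. Against WT 40 h the values were -1.88 ± 0.15 for Egr1, -3.02 ± 0.26 for Fosb and -1.95 ± 0.27 for Fos (edgeR, adjusted p = 5.09e-07, 9.91e-07 and 0.00041), and all 3 were called throughout. Against TKO 40 h, which shares the TKO 48 h libraries with this comparison, they were -2.71, -3.70 and -2.14. In the TKO libraries primed for 96 h, Fosb was at 3.62, 2.52 and 1.72 CPM and Fos at 5.89, 7.42 and 6.20 CPM. Low values of Fosb and Fos were thus not particular to 48 h.

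Other immediate early genes differed less. Junb, also of AP-1, was at 23.4, 28.4 and 27.8 CPM in WT 40 h and at 18.2, 15.5 and 14.6 CPM in TKO 48 h (-0.72 ± 0.19, adjusted p = 0.032). Klf10 and Ier2 were lower by -0.49 and -0.42 (adjusted p = 0.016 and 0.034). Ier3, a stress-induced regulator of survival, went the other way, at 6.12, 10.5 and 6.77 against 33.8, 19.9 and 19.6 CPM (1.64 ± 0.33, adjusted p = 0.0057), and was called throughout. Nr4a1, an orphan nuclear receptor, and Arc were called higher (0.90 ± 0.26 and 0.67 ± 0.17), and with the correction neither was (adjusted p = 0.13 and 0.15). The calls of Klf10, Junb, Ier2, Arc and Nr4a1 were each lost in 5 or 6 of the 6 fits without 1 library, with adjusted p values of at most 0.0769, 0.132, 0.158, 0.105 and 0.18. The library that could be left out without loss was TKO 48 h replicate 2 for Klf10 and Arc and replicate 1 for Junb and Ier2, and there was none for Nr4a1. Feedback genes of ERK were called lower in 3 of 14 members and higher in none, against 2.82% and 2.84% of all genes. The 3 were Spred1 (-0.59), Il17rd (-0.44) and Etv1 (-0.64), each lost with the correction (adjusted p = 0.077, 0.057 and 0.15). Spred1 was also lost without TKO 48 h replicate 3 (0.0509), Il17rd without any single library but TKO 48 h replicate 1 (0.0741 to 0.148) and Etv1 without any but TKO 48 h replicate 2 (0.0609 to 0.199).

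Promoters of the 3 AP-1 genes called lower are shown. Capitals mark TGACG on either strand (CGTCA as printed where it lies on the other), the core of the element bound by CREB and related factors; it was searched alone, so no other motif overlaps it here.
Fos: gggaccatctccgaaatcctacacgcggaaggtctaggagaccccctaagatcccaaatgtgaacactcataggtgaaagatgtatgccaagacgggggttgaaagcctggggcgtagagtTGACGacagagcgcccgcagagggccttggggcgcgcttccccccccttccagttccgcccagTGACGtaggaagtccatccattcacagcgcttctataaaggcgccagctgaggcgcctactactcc
Fosb: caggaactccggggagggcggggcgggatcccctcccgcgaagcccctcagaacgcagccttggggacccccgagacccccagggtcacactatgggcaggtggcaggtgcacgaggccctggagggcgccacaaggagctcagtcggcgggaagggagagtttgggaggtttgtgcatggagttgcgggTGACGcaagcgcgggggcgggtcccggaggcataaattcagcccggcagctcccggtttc
Junb: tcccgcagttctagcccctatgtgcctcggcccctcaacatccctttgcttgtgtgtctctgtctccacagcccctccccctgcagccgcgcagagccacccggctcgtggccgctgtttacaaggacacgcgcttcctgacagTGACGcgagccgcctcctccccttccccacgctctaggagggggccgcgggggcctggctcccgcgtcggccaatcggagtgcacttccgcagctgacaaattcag
These RefSeq windows on GRCm38.p6 are chr12:85473640-85473889 (+ strand), chr7:19310046-19310295 (- strand) and chr8:84978749-84978998 (- strand). TGACG occurs 2 times for Fos, 1 time each for Fosb and Junb and 0 times for Ier3, called higher. It occurs 4 times for Nr4a1, also called higher, whose RefSeq window ends 12577 bases inside its GENCODE gene. The called genes Egr1, Klf10, Ier2 and Arc had no window in the set searched, so these counts do not cover all called immediate early genes. TGACG is present in 5836 of 32851 RefSeq windows of this length (17.8%). A match is a description and says nothing of binding.

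Genes that respond to low oxygen, other than glycolytic ones, were called higher in 5 of 24 tested and lower in none, against 2.84% of all genes called higher, with a median of 0.36. With the correction 6 were higher, Bnip3 and Mxi1 being added and Egln1 lost. Ndrg1, a stress-response gene of the hypoxia programme, was at 39.7, 49.8 and 44.1 CPM in WT 40 h, 32.8, 38.4 and 56.4 CPM in TKO 40 h and 115, 101 and 87.1 CPM in TKO 48 h. It was above both other groups in every TKO 48 h library, was higher than WT by 1.18 ± 0.18 (adjusted p = 0.0006) and was called throughout. Ak4, a mitochondrial adenylate kinase, was at 86.3, 66.1 and 79.9 against 161, 126 and 135 CPM (0.86 ± 0.13, adjusted p = 0.00085), and as high in TKO 40 h at 127 to 144 CPM. Plod2, which hydroxylates collagen lysines, and Ero1l, an oxidase of the endoplasmic reticulum, were higher by 0.53 ± 0.11 and 0.52 ± 0.13 (adjusted p = 0.0072 and 0.025). Egln1, the main oxygen sensor that marks HIF for decay, was at 137, 141 and 123 CPM in WT 40 h, 75.5, 73.1 and 73.9 CPM in TKO 40 h and 179, 182 and 163 CPM in TKO 48 h. Its call against WT (0.39 ± 0.11, adjusted p = 0.042) was lost with the correction (0.22, adjusted p = 0.23) and without any single library (0.0587 to 0.162), while against TKO 40 h it was 1.24. The call of Ero1l was lost without TKO 48 h replicate 2 or 3 or WT 40 h replicate 2 or 3 (0.0538 to 0.143) and with an effective length offset (0.526). Vegfa and Car9, hypoxia targets outside these calls, were at 99.9 to 167 and 5.50 to 8.95 CPM in TKO 48 h against 78.2 to 86.1 and 2.23 to 3.34 CPM in WT 40 h (adjusted p = 0.086 and 0.34).

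Glycolysis and lactate genes were called higher in 6 of 25 and lower in none, against 2.84% of all genes called higher, with a median of 0.21. With the correction 3 were higher. Gapdh was at 2814, 2657 and 2654 CPM in WT 40 h and 4624, 3415 and 3792 CPM in TKO 48 h (0.54 ± 0.10, adjusted p = 0.0038) and was called throughout. Hk1, the hexokinase that starts glycolysis, was at 39.4, 33.0 and 30.1 against 69.7, 57.0 and 60.8 CPM (0.87 ± 0.16, adjusted p = 0.0029). Of the 6, Gapdh and Hk1 held with the correction, and Slc2a3, a glucose transporter, was gained (0.28, adjusted p = 0.045). The calls of Pkm, Aldoa, Slc16a3 and Pfkl, which make pyruvate, cleave fructose bisphosphate, export lactate and phosphorylate fructose phosphate, were lost (0.18, 0.18, 0.32 and 0.22). These 4 calls were also lost without any single library but TKO 48 h replicate 2 (adjusted p = 0.0633 to 0.209). Serine, threonine and one-carbon genes were called higher in 3 of 16 and lower in 1, against 2.84% and 2.82% of all genes. With the correction 2 were higher and none lower. Among the 3 were Gldc (0.54 ± 0.12) and Amt (0.64 ± 0.14) of the glycine cleavage system, adjusted p = 0.011 and 0.013. Both held with the correction; Gldc was lost without TKO 48 h replicate 1 or WT 40 h replicate 1 (0.0555 and 0.0586), and Amt without TKO 48 h replicate 1 or WT 40 h replicate 2 or 3 (0.0507 to 0.0764).

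Of 26 tested extracellular matrix and integrin genes 7 were called higher and none lower, against 2.84% of all genes called higher, with a median of 0.27. Among the 7 were chains of collagen IV and laminin, which form basement membranes, while the laminin chains Lamb1 and Lamc1 were not called (0.24 and 0.25). Nid1, the linker of laminin and collagen IV, was at 75.9, 64.3 and 67.4 CPM in WT 40 h and 115, 116 and 107 CPM in TKO 48 h (0.70 ± 0.11, adjusted p = 0.00072). Col4a1 was at 179, 159 and 210 against 344, 334 and 282 CPM (0.81 ± 0.15, adjusted p = 0.003), and its partner chain Col4a2 at 64.3, 77.0 and 88.9 against 127, 143 and 115 CPM (0.74 ± 0.14, adjusted p = 0.0037). TKO 48 h was above WT in every library for the 3 genes, and Nid1 and Col4a2 were called throughout. Nid1 was at 63.0 to 64.1 CPM and Col4a2 at 72.4 to 89.3 CPM in TKO 40 h, within or near the WT range. The laminin chains Lama5 and Lama1 were higher by 0.52 ± 0.12 and 0.83 ± 0.20 (adjusted p = 0.015 and 0.016). Lama5 was lost without WT 40 h replicate 1 or 2 (0.0646 and 0.08), and Lama1 without TKO 48 h replicate 1 or 3 or WT 40 h replicate 1 or 3 (0.0597 to 0.0799). With the correction 6 members were higher and 1, the integrin Itga5, lower (-0.41, adjusted p = 0.04).

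Cytoskeletal genes were among the abundant changes. Plec, a linker of filaments, was at 206, 241 and 222 CPM in WT 40 h, 209 to 240 CPM in TKO 40 h and 387, 375 and 371 CPM in TKO 48 h (0.76 ± 0.11, adjusted p = 0.0005). Ttn, the giant sarcomere protein, was at 98.5, 95.1 and 119 CPM, 94.8 to 103 CPM and 19.24, 28.3 and 33.9 CPM in the same order (-1.93 ± 0.20, adjusted p = 1.48e-05), and its value was -2.78 with an effective length offset. For both, the 40 h groups overlapped and TKO 48 h lay apart from them, and both were called throughout. Map1b, a microtubule protein, was lower by -0.93 ± 0.12 (adjusted p = 0.00022), at 250 to 258 CPM against 416 to 524 CPM in WT 40 h and 300 to 377 CPM in TKO 40 h. Flna, an actin crosslinker, was lower by -0.63 ± 0.11 (adjusted p = 0.0029), at 264 to 297 CPM against 413 to 447 CPM in WT 40 h.

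Imprinted genes were called in both allele classes. Of 14 maternally expressed genes 2 were higher, Grb10 and Cdkn1c, and 1 lower, Ppp1r9a (-0.55 ± 0.14, adjusted p = 0.03). The shares over all genes were 2.84% higher and 2.82% lower. The call of Ppp1r9a was lost with the correction (-0.39, adjusted p = 0.081) and without any single library but TKO 48 h replicate 2 (0.0691 to 0.128). With the correction 3 were higher, Igf2r being added, and none lower. Grb10, an inhibitor of growth factor receptors expressed from the maternal allele in most tissues, was at 12.8, 20.6 and 20.5 CPM in WT 40 h, 62.9, 78.0 and 86.0 CPM in TKO 40 h and 64.9, 49.9 and 61.1 CPM in TKO 48 h. Cdkn1c, the maternally expressed inhibitor of cyclin-dependent kinases, was at 5.01, 6.14 and 7.46, then 29.7, 24.6 and 36.5, then 34.7, 15.4 and 21.6 CPM. Both TKO groups were above every WT library for the 2 genes. TKO 48 h minus WT 40 h was 1.71 ± 0.18 for Grb10 and 1.94 ± 0.27 for Cdkn1c (edgeR, adjusted p = 1.57e-05 and 0.00047), both called throughout. With an effective length offset Grb10 was at 1.04 (adjusted p = 0.032). Of 24 paternally expressed genes 3 were called higher and 2 lower, against the same shares of all genes. Plagl1, a zinc finger regulator of growth, was at 5.90, 6.01 and 7.74 against 17.0, 22.5 and 16.2 CPM (1.51 ± 0.27, adjusted p = 0.003). With an effective length offset its difference was 0.08 (adjusted p = 0.97). Peg10, a retrotransposon-derived placental gene, was at 1122, 1229 and 1350 CPM in WT 40 h, 3054 to 3191 CPM in TKO 40 h and 2098, 1458 and 1878 CPM in TKO 48 h (0.55 ± 0.12, adjusted p = 0.011). Mest and Rtl1 were lower by -0.55 and -0.69 (adjusted p = 0.02 and 0.026), and were at 226 to 285 and 36.8 to 42.4 CPM in TKO 40 h. The call of Peg10 was lost without WT 40 h replicate 1 (0.0642), that of Mest without TKO 48 h replicate 3 or WT 40 h replicate 2 or 3 (0.0773 to 0.123) and that of Rtl1 without any single library but TKO 48 h replicate 2 (0.0604 to 0.121).

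Among signals of patterning, the Nodal pathway had 3 of 18 tested genes called higher and none lower, against 2.84% and 2.82% of all genes. Lefty2, a secreted Nodal antagonist, was at 153, 191 and 169 CPM in WT 40 h, 144 to 153 CPM in TKO 40 h and 341, 252 and 275 CPM in TKO 48 h (0.76 ± 0.12, adjusted p = 0.0014), and was called throughout. Pcsk6, which cleaves the Nodal precursor, was higher by 0.71 ± 0.13 (adjusted p = 0.0038). With the correction Lefty2 and Pcsk6 held, and Nodal and Lefty1 were called lower (-0.53 and -0.74), so the members did not move as one. Of 14 BMP response genes 1 was called, against 5.66% of all genes. That call, of the receptor Bmpr2, was lost with the correction (-0.20, adjusted p = 0.34) and without any single library but TKO 48 h replicate 2 (0.0863 to 0.144).

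Cell cycle genes were called higher in 2 of 43 and lower in 4, against 2.84% and 2.82% of all genes. With the correction 1 was higher and 3 lower, Foxm1 being added (-0.47) and Mki67, Cenpf and Ccnd3 lost. Ccnd1, a G1 cyclin, was at 63.1, 92 and 67.8 CPM in WT 40 h and 48.6, 35.0 and 45.6 CPM in TKO 48 h (-0.79 ± 0.16, adjusted p = 0.0059) and was called throughout. Ccnd2, its relative, was at 49.2, 88.9 and 71.0 against 44.5, 20.1 and 34.4 CPM (-1.08 ± 0.24, adjusted p = 0.011). Its call was lost without WT 40 h replicate 2 (0.0773) and with an effective length offset (0.212). Mki67, a proliferation marker, was lower by -0.48 ± 0.11, and that call was lost with the correction (-0.31, adjusted p = 0.051) and without WT 40 h replicate 1 or 3 (0.0564 and 0.0662). By edgeR, no gene of 27 in the p53 list, of 79 cytosolic ribosomal protein genes or of 66 replication-dependent histone genes was called. At an unadjusted p below 0.05 the p53 list had 2 higher and 6 lower members, the ribosomal proteins 9 higher and 1 lower, and the histones 0 higher and 2 lower; DESeq2 called 2, 0 and 0. With the correction the 3 lists had 1 lower, 2 higher and 6 lower members.

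Mitochondrially encoded mRNAs were called lower in 5 of 13, against 2.82% of all genes, with a median of -0.38. With the correction none of these mRNAs was called, with a median of -0.12. Their median GC content was 37.1%, against 49.4% over all genes. The complex I subunit mt-Nd5 was at 1053 to 1250 CPM in TKO 48 h and 1523 to 1901 CPM in WT 40 h (-0.53 before and -0.27 after the correction).

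Markers of other cells were present in both groups. The 21 trophoblast markers summed to 101 to 128 CPM in WT 40 h, 163 to 174 CPM in TKO 40 h and 185 to 195 CPM in TKO 48 h, with the giant cell gene Prl3d1 and the spongiotrophoblast gene Tpbpa at 0 in all 6 libraries. Of 15 tested, 5 were called higher and none lower, against 2.84% and 2.82% of all genes, with a median of 0.86. Of the 15, 12 had a positive value, over a range of -1.65 to 2.44. The trophoblast factors Elf5, Eomes, Gata3 and Tfap2a were not called, and Cdx2 was not tested. With the correction 4 were higher, Tead4 being lost. Krt8, a keratin of simple epithelia, was at 16.5, 21.1 and 16.4 against 51.5, 37.3 and 41.8 CPM (1.27 ± 0.19, adjusted p = 0.00071). Hand1, a factor of trophoblast giant cells and mesoderm, was at 1.89, 1.33 and 2.76 against 9.45, 13.2 and 9.94 CPM (2.44 ± 0.43, adjusted p = 0.0024), and its value was 3.04 with an effective length offset. Both were called throughout, and Hand1 was at 7.88 to 13.7 CPM in TKO 40 h. Mesoderm markers summed to 50.9 to 60.5 CPM in WT 40 h and 85.3 to 94.8 CPM in TKO 48 h, with Msgn1 at 0. Endoderm markers summed to 405 to 449 and 508 to 560 CPM, with Alb at 0. Surface ectoderm markers summed to 84.1 to 106 and 137 to 154 CPM, and neural markers to 275 to 304 and 267 to 293 CPM, the neural ranges overlapping. Most members of these lists were not called: 2 of 15 mesoderm, 2 of 21 endoderm, 1 of 10 surface ectoderm and 2 of 14 endothelium and blood markers were higher and none lower, and of 15 neural markers 2 were higher and 1 lower. Over all genes 2.84% were called higher and 2.82% lower. The part of such cells in the other results was not tested.

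Some genes of endothelium and mesoderm were near 0 in WT. Isl1, a factor of cardiac mesoderm, had 2 counts in all of WT 40 h and 38 in TKO 48 h, and its call (adjusted p = 0.033) was lost without any single library but TKO 48 h replicate 2 (0.051 to 0.145) and with an effective length offset (0.157). Sox18, a factor of vessel endothelium, was at 0, 1.07 and 0.138 CPM in WT 40 h, 2.52 to 7.45 CPM in TKO 40 h and 12.7, 6.02 and 8.10 CPM in TKO 48 h (4.46 ± 0.79, adjusted p = 0.0024) and was called throughout. Without WT 40 h replicate 1 or 2 its value was 3.86 or 6.81. Cdh5, the cadherin of endothelial junctions, had 2 counts in all of WT 40 h and 48 in TKO 48 h, with TKO 48 h replicate 3 at 0.142 CPM, close to WT. Its call (adjusted p = 0.036) was lost without any single library but that replicate (0.0818 to 0.134). The endothelium and blood markers summed to 107 to 121 CPM in WT 40 h and 124 to 153 CPM in TKO 48 h, with Hba-x at 0.

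Y-linked genes formed a set that was lower in TKO 48 h; the set was picked after its values were seen. Of 18 tested, 7 were called lower and none higher, against 2.82% called lower over all genes, and their median was -0.82. Ddx3y, an RNA helicase, was at 69.8, 73.7 and 80.6 CPM in WT 40 h, 58.6, 53.3 and 54.6 CPM in TKO 40 h and 40.4, 39.4 and 35.4 CPM in TKO 48 h. Eif2s3y, a translation initiation subunit, was at 46.4, 49.9 and 43.1, then 37.0, 34.7 and 44.1, then 23.5, 24.9 and 23 CPM. Uba1y, a ubiquitin-activating enzyme, was at 29.6, 29.9 and 34.1, then 19.215, 14.9 and 15.5, then 17.4, 9.63 and 11.5 CPM. No TKO 48 h library reached a WT value for these 3, which were called throughout (-0.96 ± 0.12, -0.96 ± 0.15 and -1.29 ± 0.25, edgeR adjusted p = 0.00014, 0.00098 and 0.0056). The other 4 were Uty, Zfy1, Zfy2 and the predicted gene Gm21748. Zfy2 had 66 counts in WT 40 h and none in TKO 48 h, at least 19.24-fold lower against a floor of 3 counts over the group. With the correction 5 of the 7 were called, without Uty (-0.34, adjusted p = 0.19) and Gm21748 (adjusted p = 0.12).

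The other 11 Y-linked genes were not called. In all, 15 of the 18 had a negative value, among them the pseudogene Mid1-ps1 (-1.98, adjusted p = 0.14) and Sry (-1.26, adjusted p = 0.52). Gm2316, Gm21704 and Gm21156 had positive values (7.63, 0.96 and 0.45). Of these the pseudogene Gm2316 had 0 counts in WT 40 h and 71 in TKO 48 h, without overlap (edgeR adjusted p = 0.057). Kdm5d, a histone demethylase, was at 24.9, 25.4 and 37.2 CPM in WT 40 h and 12.2, 28.5 and 28.7 CPM in TKO 48 h (-0.32, adjusted p = 0.51), and Usp9y, a deubiquitinase, was not called (-0.13). The X-linked relatives, which can share reads with the Y copies, were not called: Ddx3x (-0.11), Eif2s3x (0.25), Uba1 (0.20), Kdm6a (-0.18) and Zfx (0.17). Over 611 X-linked genes 12 were called higher and 23 lower, against 2.84% and 2.82% of all genes, with a median of -0.09. All 18 Y-linked genes summed to 444, 439 and 487 CPM in WT 40 h, 425, 425 and 466 CPM in TKO 40 h and 182, 306 and 246 CPM in TKO 48 h. Of that sum Gm21748 alone was 154 to 170 CPM in WT 40 h and 38.3 to 121 CPM in TKO 48 h. Without TKO 48 h replicate 1 or 3 the calls of Uty, Zfy1 and Zfy2 were lost, and without replicate 3 that of Gm21748. They were also lost without WT 40 h replicate 1 (Uty, Zfy1), replicate 2 (Zfy1, Zfy2) or replicate 3 (Gm21748), with adjusted p values of 0.0515 to 0.102 over all these fits.

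**Figure D3:**
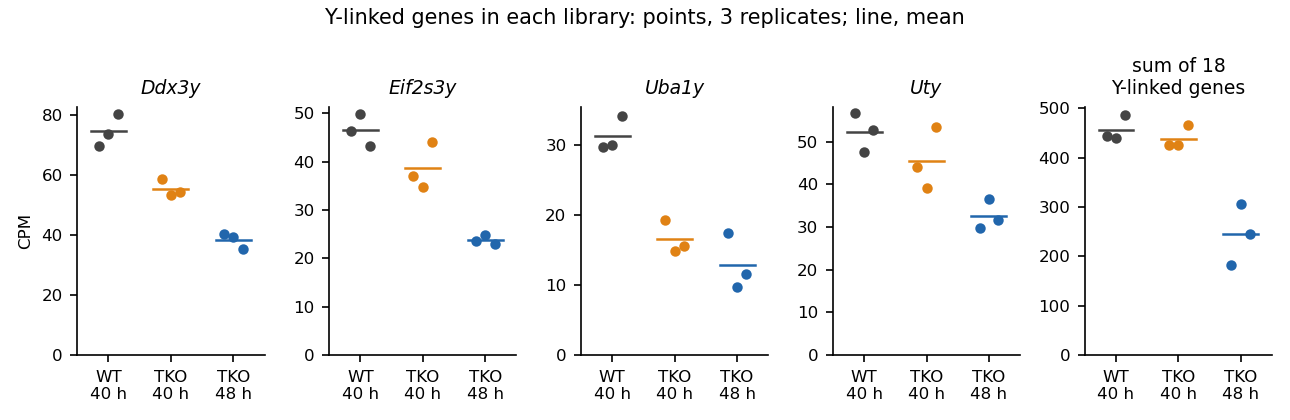
CPM (vertical axes, from 0) of 4 Y-linked genes and of the sum of 18 in WT 40 h, TKO 40 h and TKO 48 h; points are the 3 replicates and lines their means. Every TKO 48 h point lies below every WT 40 h point in each panel.

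Gla, the lysosomal alpha-galactosidase, was listed at 0 in all 3 TKO 48 h libraries and had 237 counts in WT 40 h, at least 69.1-fold lower with the same floor. TKO 40 h replicate 2 was also at 0, beside 10.6 and 10.1 CPM in replicates 1 and 3, so a value of 0 was not particular to 48 h. Its call was lost with an effective length offset and with a robust fit (adjusted p = 0.0616 and 0.101). Rpl30-ps9, neither protein-coding nor lincRNA and so outside the ranking, was also at 0 in TKO 48 h. It had 415 counts in WT 40 h, so its estimated count was at least 121-fold lower with the same floor, which covers counting error only. Its name marks a pseudogene of Rpl30, and reads of near-identical sequences may be split between them. The part of read assignment in this difference was not tested.

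The named genes fell into different patterns when both steps were set side by side. These comparisons share libraries, so their likeness is no test. In TKO 40 h against WT 40 h 501 genes were called (3.1%), and in TKO 48 h against TKO 40 h 888 (5.49%). Bcl11a, a zinc finger repressor, was at 29.6, 28.2 and 22.2 CPM in WT 40 h, 5.39 to 10.6 CPM in TKO 40 h and 5.50 to 8.52 CPM in TKO 48 h (-1.95 ± 0.29, adjusted p = 0.00055), and the difference between the TKO groups was -0.14. Dppa3, Grb10, Cdkn1c, L3mbtl2 and Hand1 likewise had called differences from WT at 40 h and none between the TKO groups. Ttn, Plec, Lefty2, Nid1, Ndrg1, Ier3, Sall2 and Tuba3b had no call in TKO 40 h against WT 40 h and a call between the TKO groups. Egr1 was higher at 40 h (0.83, adjusted p = 0.0028) and lower at 48 h. Tmem72, a membrane protein, was at 877, 1220 and 1568 CPM in WT 40 h, 3032 to 3547 CPM in TKO 40 h and 577, 747 and 719 CPM in TKO 48 h, so it too lay on both sides of WT. Its call against WT at 48 h (-0.84, adjusted p = 0.029) was lost with the correction (-0.58, adjusted p = 0.083) and without TKO 48 h replicate 1 or 3 or WT 40 h replicate 2 or 3 (0.0799 to 0.174).

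**Figure D4:**
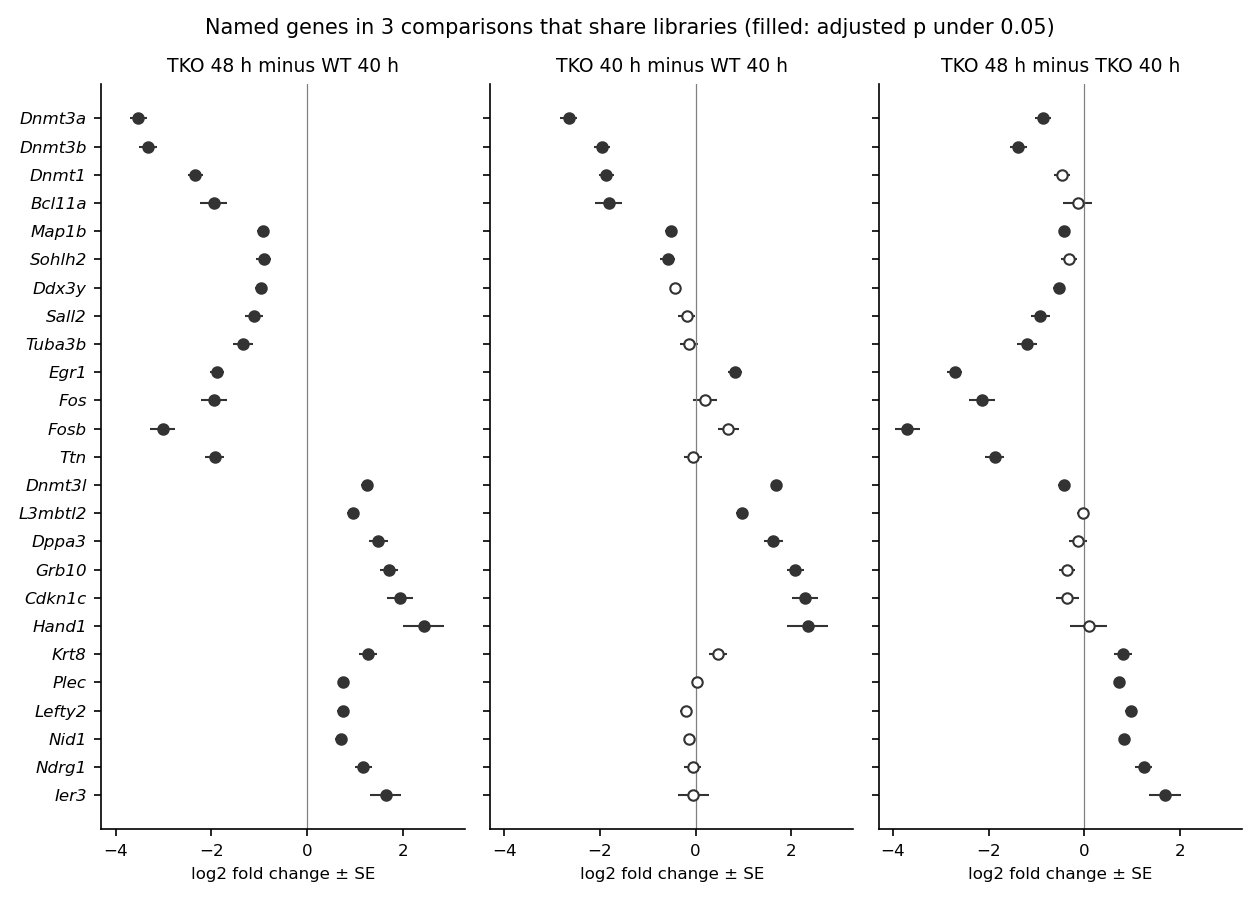
Log2 fold changes with SE of 25 named genes in TKO 48 h minus WT 40 h, TKO 40 h minus WT 40 h and TKO 48 h minus TKO 40 h, which share libraries; filled points have an adjusted p below 0.05. Dnmt1, Dnmt3a and Dnmt3b are lower in both TKO groups than in WT, while Fosb and Ttn are near or above 0 at 40 h and at -3.70 and -1.87 between the TKO groups.

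**Figure D5:**
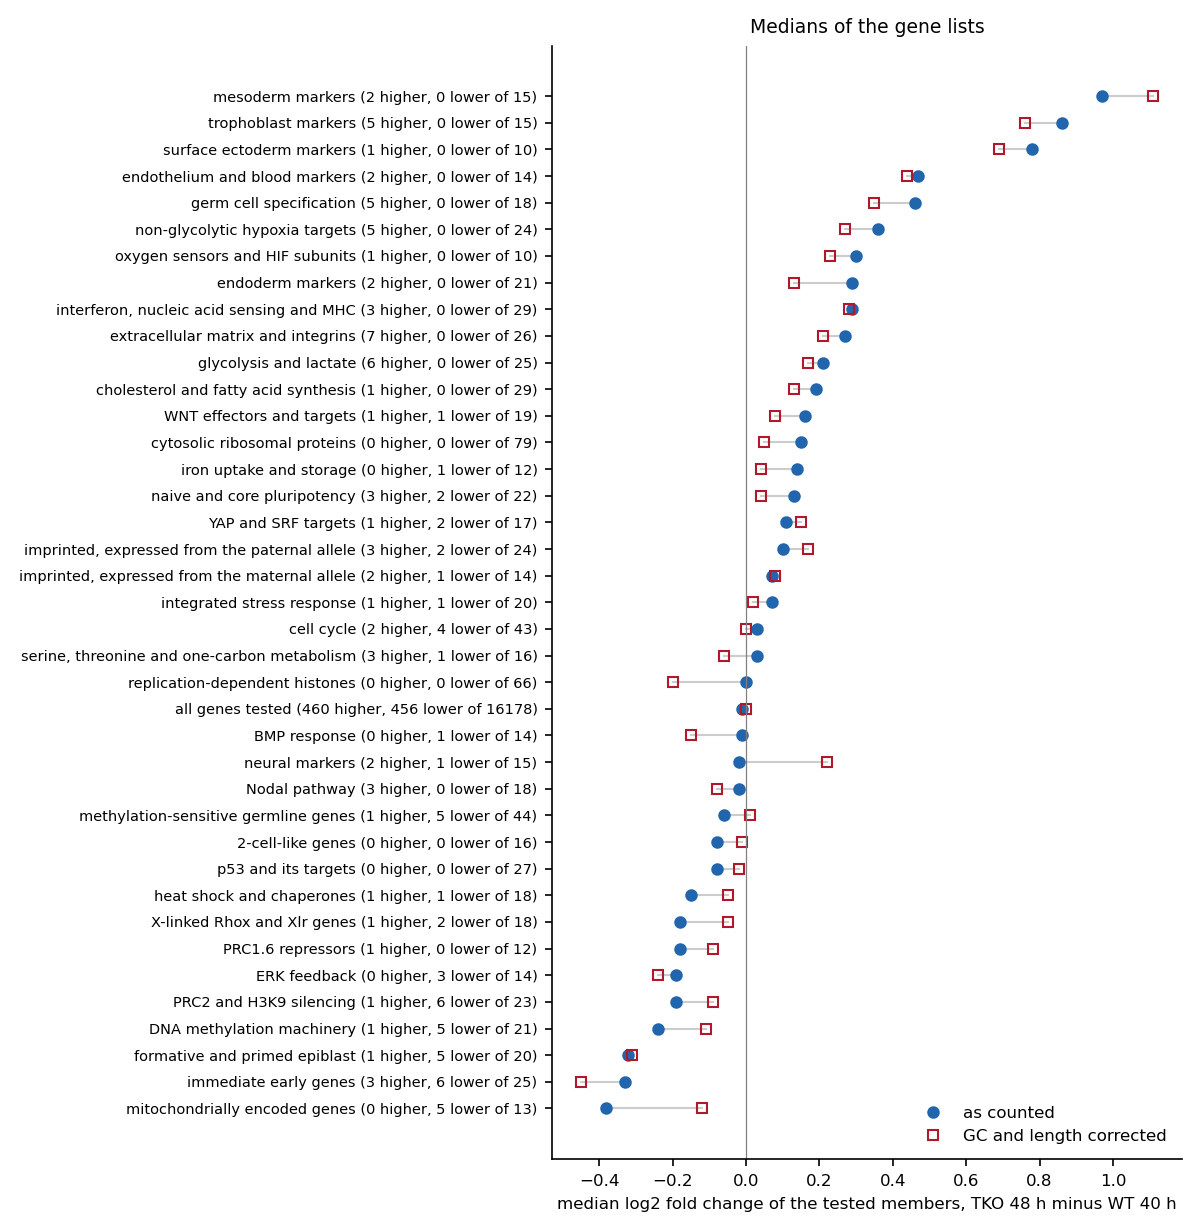
Median log2 fold change of the tested members of each gene list (horizontal axis), as counted (filled circles) and with the GC and length correction (open squares), with the numbers called higher and lower. Mesoderm, trophoblast and surface ectoderm markers have the highest medians; as counted, mitochondrially encoded and immediate early genes have the lowest. With the correction the mitochondrial median is -0.12 and that of the replication-dependent histones goes from 0.00 to -0.20.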

How the data were processed

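RNA was sequenced from 12 cultures, 3 per group, and 6 are compared here. The deposited files hold estimated counts per transcript, which the authors made with kallisto after trimming with Trim Galore 0.6.2, on GRCm38 (submitters' processing notes). The kallisto version and transcript set: not given in the sources used here. Effective lengths stand beside the estimated counts, per the file headers. The kit was stranded and took total RNA, per the labels' protocols.

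Of 119414 transcripts 116728 (97.8%) matched GENCODE M21 by ID without version. Gene sums were rounded. All 12 libraries entered 1 edgeR 4.0.16 quasi-likelihood fit in R 4.3.3, after filterByExpr by group (minimum count 10, total 15) and TMM (factors 0.927 to 1.063), with two-sided tests of 16178 genes. Calls have a Benjamini-Hochberg adjusted p under 0.05, and the SE is the log2 fold change over the square root of F. Fold bounds for genes at 0 use 3 counts over the group and cover counting error only. In simulated counts for this comparison (16178 genes, 200 changed) 72% of genes changed 2-fold and 97% of those changed 4-fold were recovered, and 4% of calls were false. The changed genes all had a mean of at least 5 CPM, and no GC or length trend was simulated. These shares therefore do not cover changes in less abundant genes or calls that follow such a trend. The GC and length correction subtracts a lowess trend per library and was chosen after seeing the data. DESeq2 1.42.0 was an alternative. Figures were drawn with matplotlib 3.10.9.

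The genes and 38 lists were chosen with earlier results of these data known. The rule named the DNA methyltransferases and Dnmt3l. It then took the 12 largest increases and 12 largest decreases, and the 8 most abundant increases and decreases of at least 1.5-fold, from called genes that reached 5 CPM in a group, did not overlap and had a name beyond a clone or Gm number. For these the rule admitted only protein-coding and lincRNA genes. From each list it took up to 5 called members, or the 2 most abundant where none was called. Other genes were named after their values were seen. Same-numbered libraries did not deviate together (correlations of 0.008, 0.007 and 0.011), so replicate numbers were not used. A result of the naming rule that is withheld is not reported here.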

Additional observations from a re-analysis of the deposited data

How the results depend on the processing

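The 916 calls became 912 with RLE size factors, 1067 with a robust fit, 1009 with protein-coding genes alone, 1300 with DESeq2 and 1000 with a replicate block, for which the numbers give no pairing. They became 1289 with no filter on low counts, 586 with only the 6 libraries and 238 with an effective length offset. Without 1 library at a time there were 396 to 1540: 441, 1540 and 425 without TKO 48 h replicates 1 to 3, and 432, 396 and 409 without WT 40 h replicates 1 to 3. Higher genes (460) became 108 with the effective length offset and 221 to 729 without 1 library. Lower genes (456) became 255 with only the 6 libraries, 130 with the offset and 156 to 811 without 1 library. Calls of at least 2-fold (247) became 389 with no filter, 115 with the offset and 154 to 446 without 1 library. The causes were not tested. Of 130 called named genes 38 were called in every alternative; 80 lost their call with the offset, 37 with the GC and length correction, 32 with only the 6 libraries and 7 with the replicate block. Hist1h2ai reversed, from 0.05 to -0.33 with the correction. Depth limits genes near 1 CPM, such as Nanos3.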

Other observations

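The class I histocompatibility genes H2-K1 and H2-D1 were called higher. H2-K1 was at 24.9, 33.2 and 31.1 CPM in WT 40 h and 71.0, 55.0 and 53.3 CPM in TKO 48 h (1.01 ± 0.21, edgeR adjusted p = 0.0071), and H2-D1 at 15.0, 18.8 and 13.5 against 28.5, 26.5 and 36.1 CPM (0.94 ± 0.22, adjusted p = 0.015). Of 29 tested interferon, nucleic acid sensing and MHC genes 3 were called higher and none lower, against 2.84% called higher over all genes. The other was H2-Bl (2.25 ± 0.58, adjusted p = 0.027), whose call was lost with the GC and length correction (1.99, adjusted p = 0.053) and without TKO 48 h replicate 1 or any WT 40 h replicate (0.055 to 0.124); B2m, Tap1 and H2-T23 were not called. H2-K1 kept its call without any single library, and H2-D1 lost it without TKO 48 h replicate 3 or WT 40 h replicate 1 or 3 (0.0597 to 0.0757). In TKO 40 h they were at 42.0 to 56.1 and 23.9 to 35.3 CPM.

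The 6 Zscan4 copies of the 2-cell-like programme, near-identical genes whose reads may be split between them, summed to 33.0, 49.6 and 92.2 CPM in WT 40 h, 98.1 to 131 CPM in TKO 40 h and 21.1 to 35.0 CPM in TKO 48 h. Of 16 tested 2-cell-like genes edgeR called none against WT, with 2 higher and 2 lower at an unadjusted p below 0.05, and DESeq2 called 0. Cebpa, a factor of fat and myeloid cells, was at 5.23, 3.87 and 2.76 CPM in WT 40 h, 10.0 to 11.7 CPM in TKO 40 h and 15.6, 17.5 and 22.3 CPM in TKO 48 h (2.21 ± 0.33, adjusted p = 0.00071), and Tbx1, a T-box factor of the pharynx, at 1.78, 3.47 and 0.967, then 3.96 to 4.42, then 12.7, 10.8 and 18.6 CPM (2.75 ± 0.48, adjusted p = 0.002). Both were called in every alternative.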
